A study of Kluyveromyces marxianus and Kluyveromyces lactis with 30 samples.

Results

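Compact divergent promoters of the budding yeast Kluyveromyces lactis are short gaps from which the genes on both sides are read outward, the left one on the minus strand and the right one on the plus strand. They were found by ordering 5076 K. lactis genes by start on each of the chromosomes and keeping each gap of 1 to 400 bases between a minus-strand gene and a following plus-strand gene. Of 5070 gaps between adjacent genes 1426 were divergent, and 424 of these (29.7%) met the limit. A further 991 divergent gaps were longer, with a median of 787 bases, and 11 were shorter than 1 base. All cultures were of strain yLB72 in 50 mL of YPD, diluted from overnight growth to 0.05 optical density units and harvested between 0.4 and 0.85 units. The groups were cultures at 39C (heat), with MMS, with ethanol, with caffeine, and controls at 28C, with 3 biological replicates each. MMS, methyl methanesulfonate, alkylates DNA. The labels give a temperature only for heat and control and a dose for none of the added agents, and all groups share the strain and the medium.

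Head-to-head genes in yeasts can be read from 1 nucleosome-poor region, so that sites for a transcription factor within it can lie upstream of both genes. In Saccharomyces cerevisiae, known examples are pairs of histone genes and of galactose-utilisation genes. Such a region can also be read in 1 direction at a time, since each gene has its own core promoter and transcription start. The comparison of interest was whether the genes of a pair changed in the same direction and by a like amount in each stress, and how this varied with gap length.

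Poly(A)-captured RNA was counted per gene, with gene totals of 38998321 to 94410956 counts in the ethanol libraries and 16896112 to 50911717 counts in all others. The ethanol libraries were counted with another program and on another feature type than all other libraries, so ethanol and counting method cannot be told apart in any ethanol value below. The ethanol libraries among themselves, and the third MMS library against the first and second, differed by more than other replicates, with chi-square per degree of freedom of 335 to 1301 in ethanol and 340 and 370 in MMS, against 17.6 to 131 among heat, caffeine and control replicates and 29.6 between the first and second MMS libraries. At a given spread between replicates this chi-square grows with the counts, and the ethanol totals reached the highest values. The part of depth in the ethanol figures was not tested. Libraries are listed by replicate number throughout. The deposited IDs carry no gene names for these pairs, so no function is given for any of them.

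The 424 gaps had a median length of 280 bases and quartiles of 227 and 334. Gaps up to 100 bases numbered 26, those over 100 and up to 200 bases 52, those over 200 and up to 300 bases 178 and those over 300 bases 168. Chromosomes 1 to 6 held 41, 49, 64, 77, 97 and 96 of them, which was 26.7% to 34.4% of the divergent gaps of a chromosome. No gene took part in more than 1 pair, so the pairs comprised 848 genes. A gap of 1 to 400 bases was more frequent in the other orientations, at 41.4% of 2214 tandem gaps (both genes on the same strand) and 76.5% of 1430 convergent gaps (genes read toward each other). Another annotated feature lay inside 1 of the 424 gaps, against 70 of the 991 longer ones, and 27 pairs had a gene that overlapped another gene. Both genes passed the filter on low counts in 419 pairs, 4 pairs had 1 gene that passed, and 1 pair had neither.

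In the 28C controls the genes beside compact divergent promoters were of lower abundance than those beside longer ones, and the levels within a pair lay closer together. Levels are CPM (counts scaled to a fixed library total) per kilobase of gene, the only scale on which different genes are compared here. The median level was 34.0 CPM per kilobase in compact pairs and 63.8 in divergent pairs over 400 bases. The higher gene of a compact pair had a median of 51.9 CPM per kilobase and the lower gene 22.1, against 123 and 35.1 in longer pairs. Median gene length was similar, at 1182 bases in compact pairs and 1254 in longer ones.

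The median fold between the genes of a pair was 2.07 in compact pairs and 2.99 in divergent pairs over 400 bases. It was 2.97 in tandem and 2.71 in convergent pairs with gaps up to 400 bases. Levels lay within 2-fold of each other in 198 of 419 compact pairs (47.3%) and in 329 of 977 longer pairs (33.7%), and were over 10-fold apart in 9.79% and 21.3% of these. The quartiles of the log2 level of single genes also lay closer together in compact than in longer pairs. A narrower spread of levels by itself brings any 2 genes closer, whether or not they are neighbours. Its part in these folds and shares was not tested, so they do not by themselves show likeness within a pair. The correlation of log2 levels across pairs was weak, with Pearson r = 0.128 and Spearman rho = 0.177 over the 419 compact pairs and 0.095 and 0.079 over the 977 longer ones. In the 3 control libraries taken singly r was 0.151, 0.129 and 0.106 in compact pairs. All correlations here are across pairs that share the same libraries, are given without a p, and are descriptions.

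**Figure D1:**
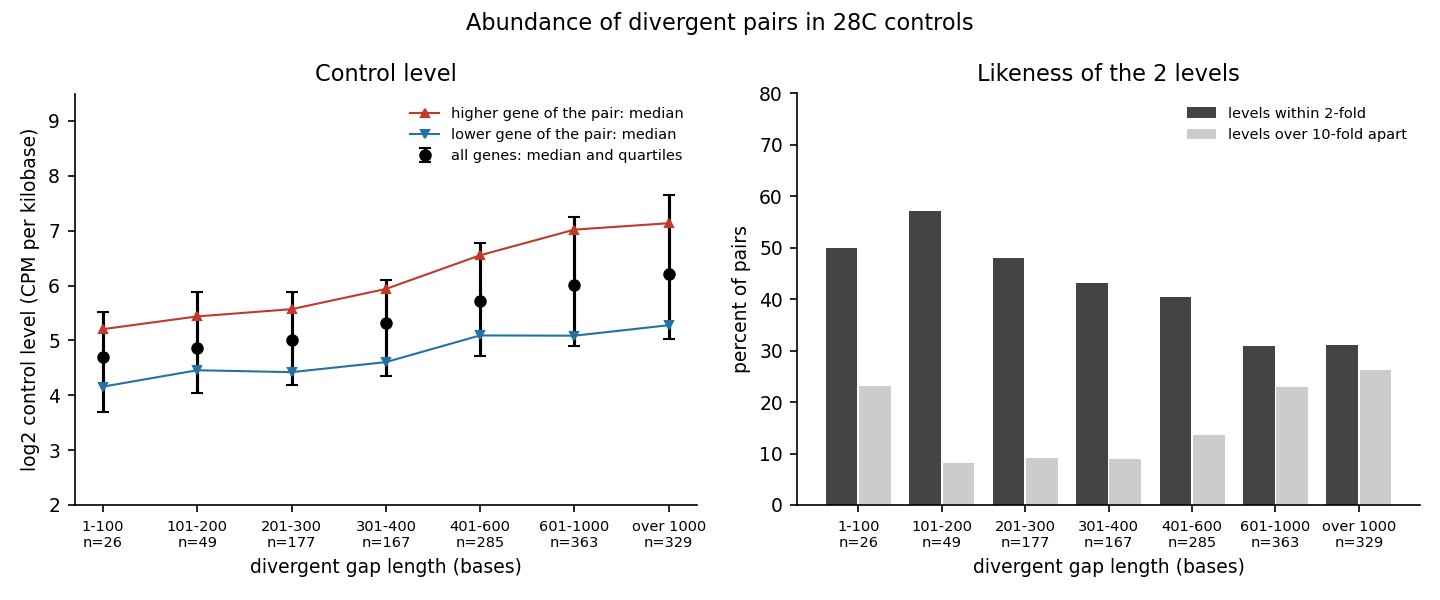
Control abundance of divergent pairs by gap length in bases, with the number of pairs tested under each bin. Left, log2 of CPM per kilobase as the median with quartiles of all genes (points with bars) and the medians of the higher and lower gene of a pair; right, the percent of pairs whose levels lay within 2-fold or over 10-fold apart. The median level of all genes is 34.0 CPM per kilobase over all compact gaps and 63.8 over gaps above 400 bases.

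Medians of the level were 26.0, 29.0, 32.1 and 39.7 CPM per kilobase in the 4 bins of 100 bases up to 400, and 52.6, 64.0 and 74.3 for gaps of 400 to 600 bases, 600 bases to 1 kb and over 1 kb, each bin including its upper limit. The median rose from bin to bin with gap length. The pair with the highest summed control level, on chromosome 2 with a gap of 11 bases (715323 to 715333), was also among the most unequal. Its minus-strand gene stood at 2902 CPM per kilobase and its plus-strand gene at 29.9.

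Heat changed 582 of the 838 genes in these 419 pairs (69.5%; 71.0% of all 5124 genes tested), by the edgeR quasi-likelihood test at a Benjamini-Hochberg adjusted p under 0.05, and both genes of 208 pairs. Called the same way were 149 pairs (35.6%), against 32.9% of longer divergent pairs and 30.2% of all 4991 adjacent pairs. Both genes were higher in 73 of the 419 pairs, a larger share than the 12.4% of all adjacent pairs. Both were lower in 76, a share near the 17.9% of all adjacent pairs. Opposite calls were made in 59 pairs (14.1%), against 19.7% of longer divergent pairs and 21.5% of all adjacent pairs. Among pairs with both genes called, 71.6% of compact pairs and 62.6% of longer ones moved the same way.

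MMS changed 602 genes of compact pairs (71.8%; 71.5% of all genes tested) and gave 167 pairs called the same way (39.9%), against 32.3% of longer pairs and 31.0% of all adjacent pairs. In 116 of them both genes were higher, a larger share of the 419 compact pairs than the 15.7% of all adjacent pairs. In 51 both were lower, a smaller share of the 419 than the 15.3% of all adjacent pairs. The opposite calls numbered 54 (12.9%), against 20.6% of longer pairs and 20.9% of all adjacent pairs. Of pairs with both genes called, 75.6% of compact and 61.1% of longer ones moved the same way.

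Ethanol changed 547 genes (65.3%; 65.5% of all genes tested) and gave 128 same-way compact pairs (30.5%), against 25.7% of longer pairs and 25.6% of all adjacent pairs. Both genes were higher in 84 of the 419 compact pairs, a larger share than the 12.8% of all adjacent pairs. Both were lower in 44, a smaller share than the 12.8% of all adjacent pairs. Opposite calls were 50 (11.9%), against 17.1% of longer pairs and 17.8% of all adjacent pairs, and the same-way share of pairs with both genes called was 71.9% in compact and 60.0% in longer pairs.

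Caffeine changed 549 genes (65.5%; 62.7% of all genes tested), and 134 compact pairs were called the same way (32.0%), against 244 of the 977 longer pairs and 23.0% of all adjacent pairs. Of these 75 were higher and 59 lower in both genes, each a larger share of the 419 compact pairs than the 11.5% of all adjacent pairs. Opposite calls were 44 (10.5%), against 14.3% of longer pairs and 16.9% of all adjacent pairs. Where both genes were called, 75.3% of compact and 63.5% of longer pairs moved the same way. The 4 stresses share the 3 control libraries, so their counts are not independent of one another.

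**Figure D2:**
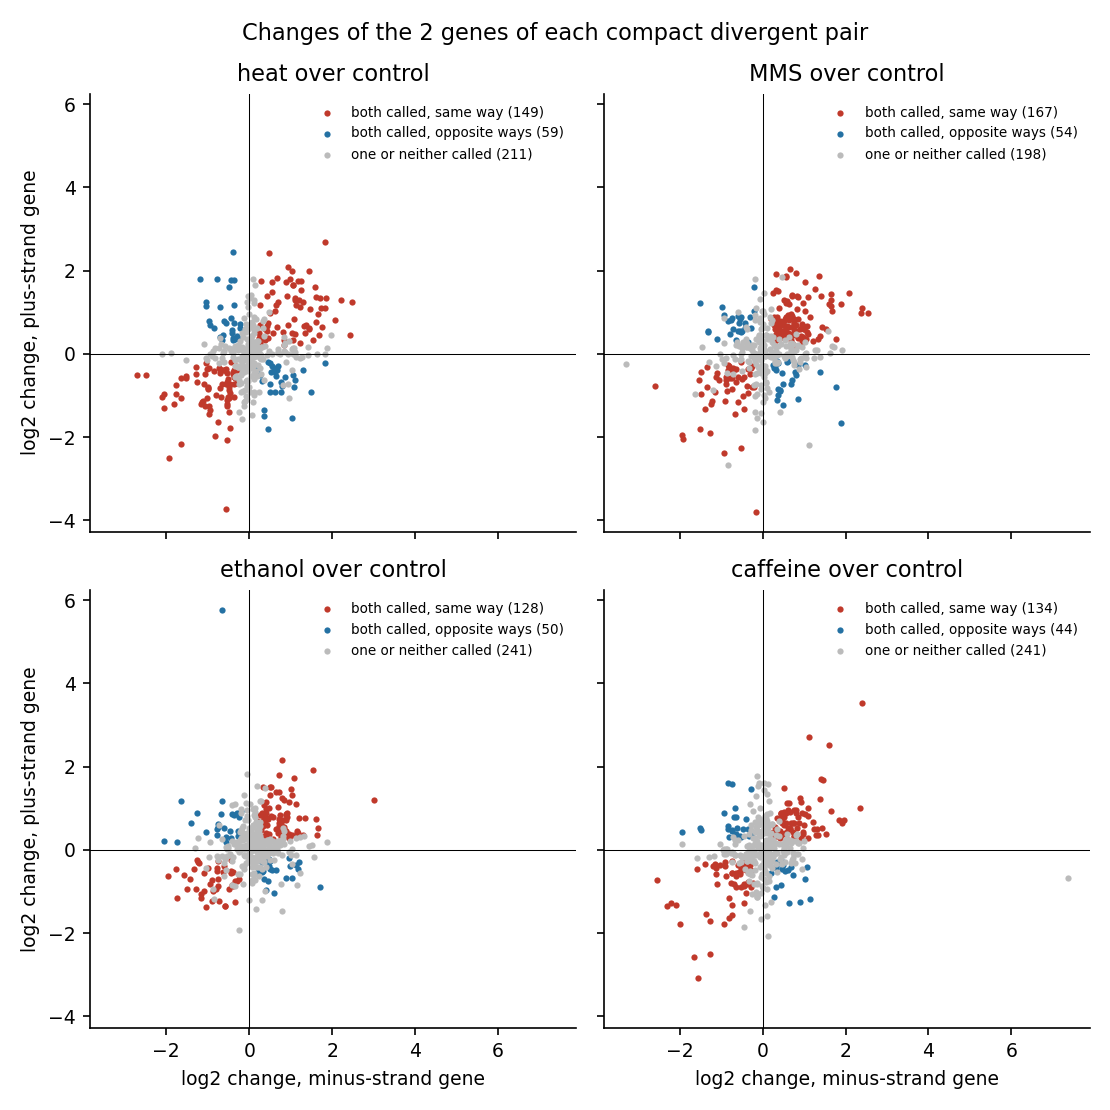
Log2 change over 28C control of the minus-strand gene (x axis) and the plus-strand gene (y axis) of the 419 compact pairs with both genes tested, 1 panel per stress. Red points are pairs with both genes called the same way (149 for heat, 167 for MMS, 128 for ethanol, 134 for caffeine), blue points pairs called opposite ways, and grey points all others.

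Single genes of compact pairs were more often higher than lower in MMS and ethanol. In MMS 45.6% of the 838 genes were higher and 26.3% lower, against 35.7% and 35.9% of all genes tested. In ethanol 41.5% were higher and 23.7% lower, against 33.1% and 32.3% of all genes tested. The same lean was present in other pairs with gaps up to 400 bases. In MMS 40.2% of genes in tandem pairs were higher and 30.5% lower, and 40.7% and 32.2% of those in convergent pairs; in ethanol the shares were 36.9% and 27.8% in tandem pairs and 37.5% and 27.7% in convergent pairs. Caffeine and heat were nearer to the background, with 35.7% higher and 29.8% lower in caffeine against 31.5% and 31.2%, and 34.0% higher and 35.4% lower in heat against 32.3% and 38.7%. The heat direction turned round with the scaling, since 285 genes were higher and 297 lower with TMM factors while RLE factors gave 315 higher and 266 lower. For pairs with both genes called in heat, TMM gave 73 higher and 76 lower and RLE 87 higher and 64 lower.

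Control level moved with this. Pairs were split at the median control level of all divergent pairs, a split added after the values were seen. In MMS, compact pairs below it had 55.3% of genes higher and 16.1% lower, and the 397 longer pairs below it 51.0% and 22.0%. The 118 compact pairs above it had 20.8% of genes higher and 52.1% lower in MMS, and the 580 longer pairs 23.3% and 48.4%. Level and change rest on the same control libraries, so a gene measured too low in them also leans to a higher change. The size of this effect was not tested. Below the median, 32.9% of compact pairs were called the same way in heat, 42.2% in MMS, 30.6% with ethanol and 28.9% with caffeine, against 31.5%, 36.0%, 25.2% and 27.5% of longer pairs. Above it, the shares were 42.4%, 33.9%, 30.5% and 39.8% of compact pairs and 33.8%, 29.8%, 26.0% and 23.3% of longer pairs. The compact share was the higher one on both sides of the median in each stress, by the least in heat and caffeine below it.

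Across pairs, the changes of the 2 genes were more alike in compact than in longer divergent pairs in every stress. In heat r was 0.409 over 419 compact pairs and 0.250 over 977 longer ones (rho 0.398 and 0.235). In MMS r was 0.378 and 0.244 (rho 0.369 and 0.222), in ethanol 0.268 and 0.098 (rho 0.286 and 0.135), and in caffeine 0.364 and 0.298 (rho 0.369 and 0.226). Neighbours in other orientations at the same distance had lower values, with r of 0.0996, 0.153, 0.117 and 0.099 in tandem pairs and 0.075, 0.107, 0.066 and 0.077 in convergent pairs, in heat, MMS, ethanol and caffeine. Over all 4991 adjacent pairs r was 0.164 in heat, 0.166 in MMS and 0.152 in caffeine. In ethanol it was 0.286 over all adjacent pairs, above the 0.268 of compact pairs, while rho was 0.286 in compact and 0.129 in all adjacent pairs.

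Set against the controls, each stressed library also placed compact pairs above longer divergent, tandem and convergent pairs. In compact pairs r was 0.406, 0.408 and 0.402 in the heat libraries, 0.365, 0.347 and 0.363 in MMS, 0.325, 0.233 and 0.224 in ethanol, and 0.365, 0.341 and 0.362 in caffeine. In longer divergent pairs it ran from 0.246 to 0.256 in heat, 0.216 to 0.280 in MMS, 0.10 to 0.115 in ethanol and 0.295 to 0.300 in caffeine. Compact pairs had a higher r than longer divergent pairs in 12 of 12 stressed libraries. Against all adjacent pairs, r of compact pairs was lower in ethanol libraries 2 and 3, at 0.233 and 0.224 in compact and 0.244 and 0.258 in all adjacent pairs. These all share the controls, and pairs within a library are not replicates, so no test was made of this difference.

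The genes of compact pairs also varied together without stress. With each control library set against the other 2 controls, r was 0.224, 0.116 and 0.295 in compact pairs, against 0.193, 0.072 and 0.176 in longer divergent pairs, 0.110, 0.054 and 0.067 in tandem pairs and -0.010, -0.025 and 0.048 in convergent pairs. The spread over the 3 control libraries was wide, with a mean of 0.212 ± 0.090 (SD, n = 3) in compact and 0.147 ± 0.065 (SD, n = 3) in longer pairs. These 3 values are not independent, since each control is also part of the reference for the other 2.

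**Figure D3:**
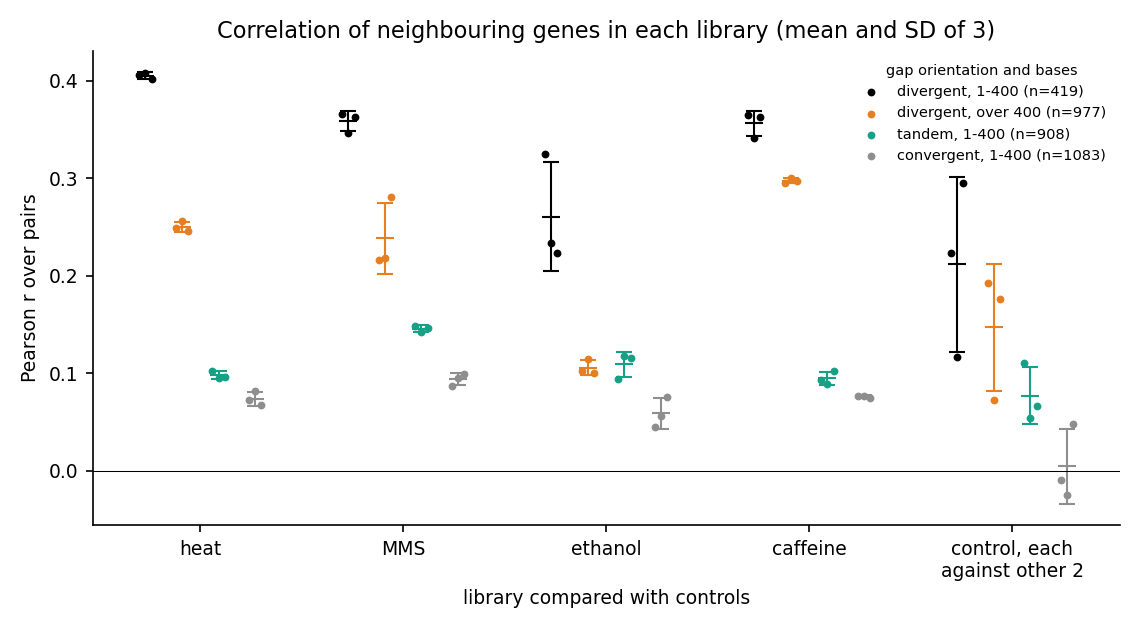
Pearson r over neighbouring pairs for each library against the controls (control libraries against the other 2 controls), by stress on the x axis and by orientation and gap length in colour, with the mean and SD of 3 libraries. Of the 4 classes drawn, compact divergent pairs stand highest in every stress, between 0.402 and 0.408 in the heat libraries, and convergent pairs of the same length lie near 0 in the controls.

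On either side of the median control level the order was nearly the same. Below it, r in compact pairs was 0.394 under heat, 0.257 under MMS, 0.204 under ethanol and 0.260 under caffeine, against 0.201, 0.158, 0.067 and 0.305 in longer pairs. Above it, r was 0.344, 0.245, 0.269 and 0.356 in compact pairs and 0.249, 0.152, 0.094 and 0.216 in longer ones. Caffeine below the median was the exception by r, while its rho was 0.287 in compact and 0.187 in longer pairs. Compact pairs whose control levels lay within 2-fold of each other had r of 0.391, 0.465, 0.437 and 0.431 in heat, MMS, ethanol and caffeine, and those further apart 0.409, 0.333, 0.171 and 0.329. Longer divergent pairs had 0.217, 0.316, 0.157 and 0.294 within 2-fold and 0.264, 0.213, 0.085 and 0.302 further apart. In MMS and ethanol r was thus higher for like levels in longer pairs too.

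The fall with gap length was not even. In heat r was 0.075 in the 26 pairs with gaps up to 100 bases, 0.226 in 49 pairs of 100 to 200, 0.520 in 177 pairs of 200 to 300 and 0.431 in 167 pairs of 300 to 400 bases. Beyond the limit it was 0.354 in 285 pairs of 400 to 600 bases, 0.190 in 363 pairs of 600 bases to 1 kb and 0.197 in 329 pairs over 1 kb. The highest heat values lay between 200 and 400 bases, and in the shortest bin 9 pairs were called the same way and 9 opposite ways.

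MMS gave 0.409, 0.354, 0.343 and 0.415 in the 4 bins up to 400 bases, then 0.293, 0.168 and 0.237. The MMS value of the shortest bin rested on the third MMS library, without which it was 0.210. Ethanol gave -0.019, 0.520, 0.231 and 0.329, then 0.161, 0.055 and 0.082, and caffeine 0.451, 0.559, 0.205 and 0.443, then 0.240, 0.235 and 0.357. Single pairs, described further on, weighed on both. Without the ethanol pair with a gap of 47 bases, r in the shortest ethanol bin was 0.210 in place of -0.019, and rho with that pair was 0.154. Without the caffeine pair with the 164-fold rise, r at 200 to 300 bases was 0.352 in place of 0.205, and rho with it was 0.329. Caffeine's rho was 0.483, 0.489, 0.329 and 0.372 up to 400 bases, then 0.270, 0.170 and 0.247. In all 4 stresses r and rho were lower in each bin over 400 bases than at 300 to 400 bases.

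**Figure D4:**
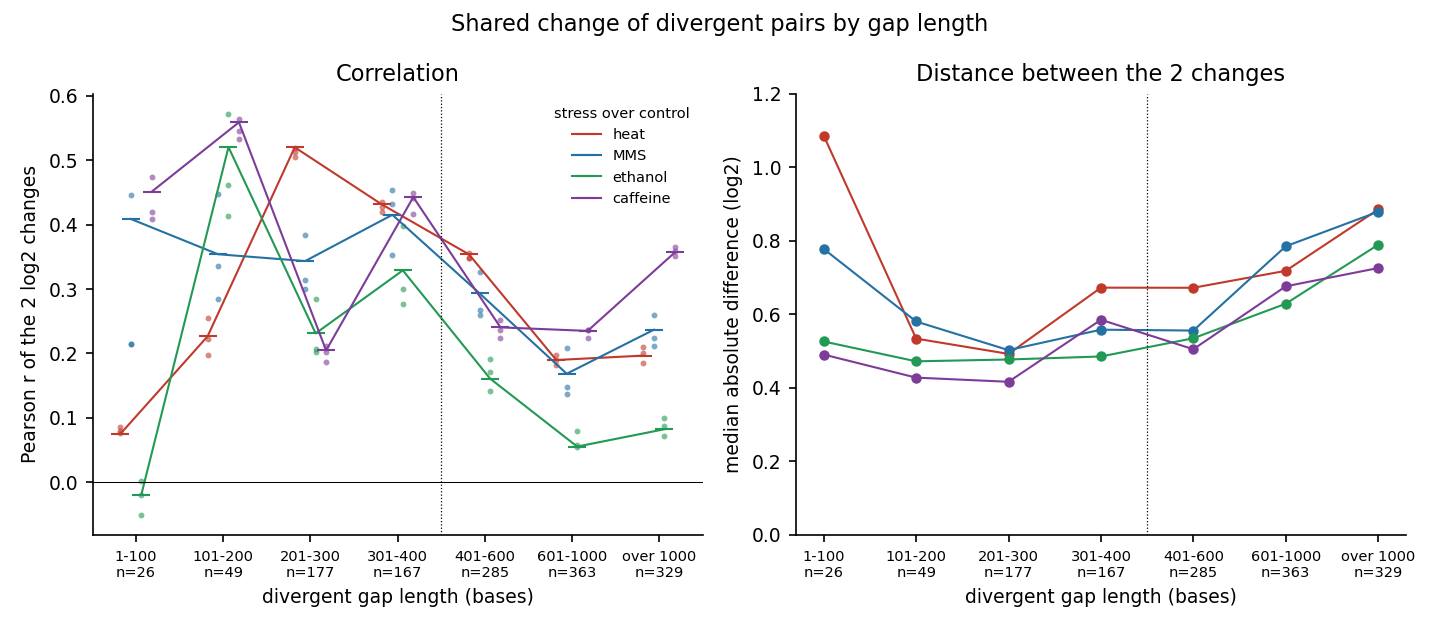
Left, Pearson r of the log2 changes of the 2 genes of divergent pairs (dashes joined by lines; points are single libraries) by gap length in bases, with the number of pairs under each bin; right, the median absolute difference of the 2 log2 changes. The dotted line marks 400 bases. In heat r is 0.520 at 200 to 300 bases and 0.190 at 600 bases to 1 kb, and the shortest bin stands apart in heat.

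The median absolute difference between the 2 log2 changes was 0.60 in compact and 0.76 in longer pairs in heat, 0.54 and 0.75 in MMS, 0.48 and 0.64 in ethanol, and 0.47 and 0.64 in caffeine. Genes of compact pairs also changed less, with a median absolute log2 change of 0.49 (longer pairs 0.56) under heat, 0.52 (0.57) under MMS, 0.41 (0.45) under ethanol and 0.44 (0.46) under caffeine. Calls of at least 2-fold were made for 23.2% of genes in compact pairs under heat (25.4% of all genes tested), 17.5% under MMS (24.0%), 12.9% under ethanol (18.7%) and 13.5% under caffeine (17.6%). The pairs with gaps up to 100 bases had the largest median difference of any bin in heat, at 1.09.

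Sharing a direction did not mean sharing a size. A test of the log2 ratio of the 2 genes (limma over all 4991 adjacent pairs, adjusted p under 0.05) called a different size or direction of change in 273 compact pairs under heat (65.2%; 69.0% of all adjacent pairs), 269 under MMS (64.2%; 68.4%), 251 under ethanol (59.9%; 63.1%) and 256 under caffeine (61.1%; 63.0%), so the compact pairs lay close to the background. Of compact pairs called the same way, 57.0%, 50.3%, 52.3% and 46.3% still differed in size in heat, MMS, ethanol and caffeine. These shares were 59.2%, 53.8%, 47.8% and 52.0% in longer divergent pairs and 54.6%, 50.3%, 45.9% and 48.0% in all adjacent pairs, so the compact values again lay close to the background.

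In compact pairs, partners of genes changed at least 2-fold were called the same way in over 50% of cases in every stress. A pair with both genes changed that much counts from either side. In heat 117 genes of compact pairs were called at least 2-fold higher, and their partners had a median log2 change of 0.65 and were called higher in 65.8% and lower in 14.5% of cases. In longer divergent pairs the partners of 246 such genes had a median of 0.34, with 52.4% called higher and 20.7% lower. The 77 genes at least 2-fold lower in heat had partners with a median of -0.54, called lower in 70.1% and higher in 9.09%, against -0.39, 52.8% and 21.9% for 265 genes of longer pairs.

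The partners' median log2 change beside genes at least 2-fold higher was 0.57 under MMS, 0.35 under ethanol and 0.56 under caffeine in compact pairs, against 0.33, 0.05 and 0.25 in longer pairs. Beside genes at least 2-fold lower it was -0.51, -0.51 and -0.43 in compact pairs and -0.46, -0.26 and -0.33 in longer pairs. In MMS 58.2% of the partners of the 55 lower genes in compact pairs were called lower, close to the 54.3% beside 302 lower genes of longer pairs. Beside higher genes in MMS the share was 65.2% in compact, 50.0% in longer divergent and 58.9% in tandem pairs. Ethanol gave 52.9% beside higher and 62.5% beside lower genes in compact pairs, against 39.3% and 45.9% in longer pairs. Caffeine gave 64.8% and 57.6% in compact pairs, against 45.1% and 48.0% in longer pairs.

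Pairs with both genes changed at least 2-fold were few. Called the same way were 34 compact pairs in heat (8.11%, against 5.47% of all adjacent pairs), 21 in MMS (5.01%, against 5.03%), 9 in ethanol (2.15%, against 2.81%) and 16 in caffeine (3.82%, against 2.74%), so the shares in MMS and ethanol were not above the background. In longer divergent pairs the shares were 6.35%, 7.27%, 2.97% and 3.89% in that order of stresses. Only in heat was the compact share above that of longer pairs. Compact pairs called opposite ways were 4 in heat (0.955%, against 2.16% of all adjacent pairs), 2 in MMS (0.477%, against 2.02%), and 1 each in ethanol and caffeine (0.239%, against 1.46% and 1.02%). The pairs described next are those with the largest smaller change among them that also reached, in each gene, a mean of 10 CPM under stress or in controls, with no overlap between stressed and control libraries. That left 19 higher, 11 lower and 3 opposite pairs in heat, 11, 6 and 2 in MMS, 5, 4 and 1 in ethanol, and 6, 9 and 1 in caffeine. In the stress a pair was chosen in, separate groups, calls and 2-fold changes were thus required by the choice. They are printed as description and are no further evidence.

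In heat the pair that rose most in both genes was KLLA0D14861g and KLLA0D14883g, around a gap of 353 bases on chromosome 4 (1254028 to 1254380). KLLA0D14861g had 507, 507 and 510.5 CPM in heat and 134, 129.9 and 165 CPM in controls, a log2 change of 1.83 ± 0.21 (SE; edgeR adjusted p = 3.2e-06). KLLA0D14883g had 41.8, 37.0 and 41.4 CPM in heat and 4.39, 5.86 and 8.70 CPM in controls, a log2 change of 2.70 ± 0.31 (SE; edgeR adjusted p = 2.84e-06). Heat and control libraries did not overlap for either gene, as the choice of pairs required. The ratio of the genes also changed, by a log2 difference of -0.88 ± 0.16 for the minus-strand over the plus-strand gene (SE; limma adjusted p = 0.000307).

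The same pair parted in caffeine, with a log2 difference of -1.25 ± 0.16 (SE; limma adjusted p = 1.7e-05), while in ethanol the difference of -0.34 ± 0.16 missed the threshold (SE; limma adjusted p = 0.0834). In ethanol KLLA0D14861g fell by 0.59 on the log2 scale (edgeR adjusted p = 0.0202), while KLLA0D14883g had a log2 change of -0.21 that missed the threshold (adjusted p = 0.547). In caffeine KLLA0D14883g rose by 1.35 (edgeR adjusted p = 0.00136) and KLLA0D14861g stood at 0.11 (adjusted p = 0.656). MMS raised both, by 0.67 and 2.03 (edgeR adjusted p = 0.00957 and 3.93e-05). The log2 difference in MMS, -1.35 ± 0.16, was the largest of the 4 stresses (SE; limma adjusted p = 6.93e-06).

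The pair that fell most in both genes was the same in heat and in MMS, KLLA0F08393g and KLLA0F08415g around a gap of 304 bases on chromosome 6 (783150 to 783453). KLLA0F08393g had 233, 254 and 236 CPM in heat, 179, 175 and 355 CPM in MMS, and 1090, 926 and 727 CPM in controls. KLLA0F08415g had 149, 171 and 154 CPM in heat, 202, 200.5 and 288 CPM in MMS, and 1091, 873 and 708 CPM in controls. Every heat and MMS library lay below every control for both genes, and the third MMS library was the highest of its group. The log2 changes were -1.92 ± 0.25 and -2.50 ± 0.22 in heat and -1.95 ± 0.25 and -1.95 ± 0.22 in MMS (SE; the largest of the 4 edgeR adjusted p = 1.06e-05).

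In MMS the log2 difference between the 2 falls was -0.06 ± 0.15, smaller than its error (SE; limma adjusted p = 0.73). In ethanol they parted. KLLA0F08415g had 1776, 3003 and 2768 CPM in ethanol, all above its controls (2.82-fold, edgeR adjusted p = 4.1e-05). KLLA0F08393g had 948, 1282 and 1358 CPM in ethanol, which overlapped its controls (log2 change 0.39 ± 0.24, SE, adjusted p = 0.172). In caffeine KLLA0F08415g fell by 1.06 (edgeR adjusted p = 0.000651) and KLLA0F08393g stood at -0.25 (adjusted p = 0.391).

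The MMS pair with the largest joint rise had a gap of only 63 bases, between KLLA0F14300g and KLLA0F14322g on chromosome 6 (1328375 to 1328437). KLLA0F14300g had 45.2, 42.7 and 39.8 CPM in MMS and 8.77, 10.6 and 10.7 CPM in controls (log2 change 2.09 ± 0.09, SE, edgeR adjusted p = 8.37e-10). KLLA0F14322g had 12.7, 11.7 and 8.80 CPM in MMS and 4.17, 3.82 and 4.12 CPM in controls (log2 change 1.45 ± 0.17, SE, edgeR adjusted p = 3.53e-06). Groups did not overlap for either gene. In caffeine the order of the sizes was the other way, with 1.61 for KLLA0F14300g and 2.51 for KLLA0F14322g (edgeR adjusted p = 4.13e-09 and 2.28e-08).

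Ethanol's largest joint rise was in KLLA0D02728g and KLLA0D02750g, with a gap of 214 bases on chromosome 4 (233167 to 233380). KLLA0D02728g had 38.9, 59.4 and 48.8 CPM in ethanol and 16.2, 18.5 and 16.2 CPM in controls (log2 change 1.53 ± 0.15, SE, edgeR adjusted p = 1.36e-06). KLLA0D02750g had 44.2, 53.0 and 48.2 CPM in ethanol and 13.3, 12.6 and 12.4 CPM in controls (log2 change 1.93 ± 0.12, SE, edgeR adjusted p = 2.05e-08). All ethanol libraries lay above all controls for both. In heat the same genes went opposite ways, at 0.49 for KLLA0D02728g and -0.92 for KLLA0D02750g (edgeR adjusted p = 0.0104 and 2.1e-05).

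The largest joint fall in ethanol was in KLLA0D16137g and KLLA0D16148g, whose gap of 113 bases lies on chromosome 4 (1361645 to 1361757). KLLA0D16137g had 30.7, 41.9 and 42.1 CPM in ethanol and 120.5, 123 and 139 CPM in controls (log2 change -1.73 ± 0.17, SE, edgeR adjusted p = 1.32e-06). KLLA0D16148g had 64.3, 61.1 and 66.4 CPM in ethanol and 135, 141 and 151 CPM in controls (log2 change -1.16 ± 0.12, SE, edgeR adjusted p = 2.28e-06). Groups did not overlap. Among the HTSeq-counted stresses, these genes fell in caffeine by 2.22 and 1.26 (edgeR adjusted p = 1.22e-07 and 7.63e-07) and in MMS by 1.14 and 0.92 (adjusted p = 3.66e-05 and 1.22e-05). In heat their changes of -0.34 and -0.16 missed the threshold (adjusted p = 0.0852 and 0.249).

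Caffeine's largest joint rise was in KLLA0A03289g and KLLA0A03311g, at a gap of 391 bases on chromosome 1 (295899 to 296289). KLLA0A03289g had 20.6, 16.1 and 18.2 CPM in caffeine and 3.87, 3.35 and 3.14 CPM in controls (log2 change 2.39 ± 0.21, SE, edgeR adjusted p = 3.16e-07). KLLA0A03311g had 144, 99.8 and 118 CPM in caffeine and 8.96, 11.0 and 11.4 CPM in controls (log2 change 3.53 ± 0.15, SE, edgeR adjusted p = 4.05e-10). The rise was 5.25-fold and 11.6-fold with no overlap of groups. Ethanol raised the minus-strand gene more, by 3.02 against 1.19 for the plus-strand gene (edgeR adjusted p = 5.23e-08 and 6.56e-06).

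The largest joint fall in caffeine was in KLLA0F12276g and KLLA0F12298g, with a gap of 166 bases on chromosome 6 (1133649 to 1133814). KLLA0F12276g had 24.5, 22.9 and 22.4 CPM in caffeine and 100.9, 94.2 and 81.8 CPM in controls (log2 change -1.99 ± 0.11, SE, edgeR adjusted p = 4.51e-09). KLLA0F12298g had 354, 367 and 368 CPM in caffeine and 1307, 1169 and 1265 CPM in controls (log2 change -1.78 ± 0.20, SE, edgeR adjusted p = 3.12e-06). Both groups were far apart for both genes, and the sizes differed by -0.21 ± 0.16 on the log2 scale (SE; limma adjusted p = 0.271). Both genes also fell in heat (-1.65 and -2.17), MMS (-1.38 and -1.32) and ethanol (-0.60 and -1.34), the largest of these edgeR adjusted p being 0.000241.

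**Figure D5:**
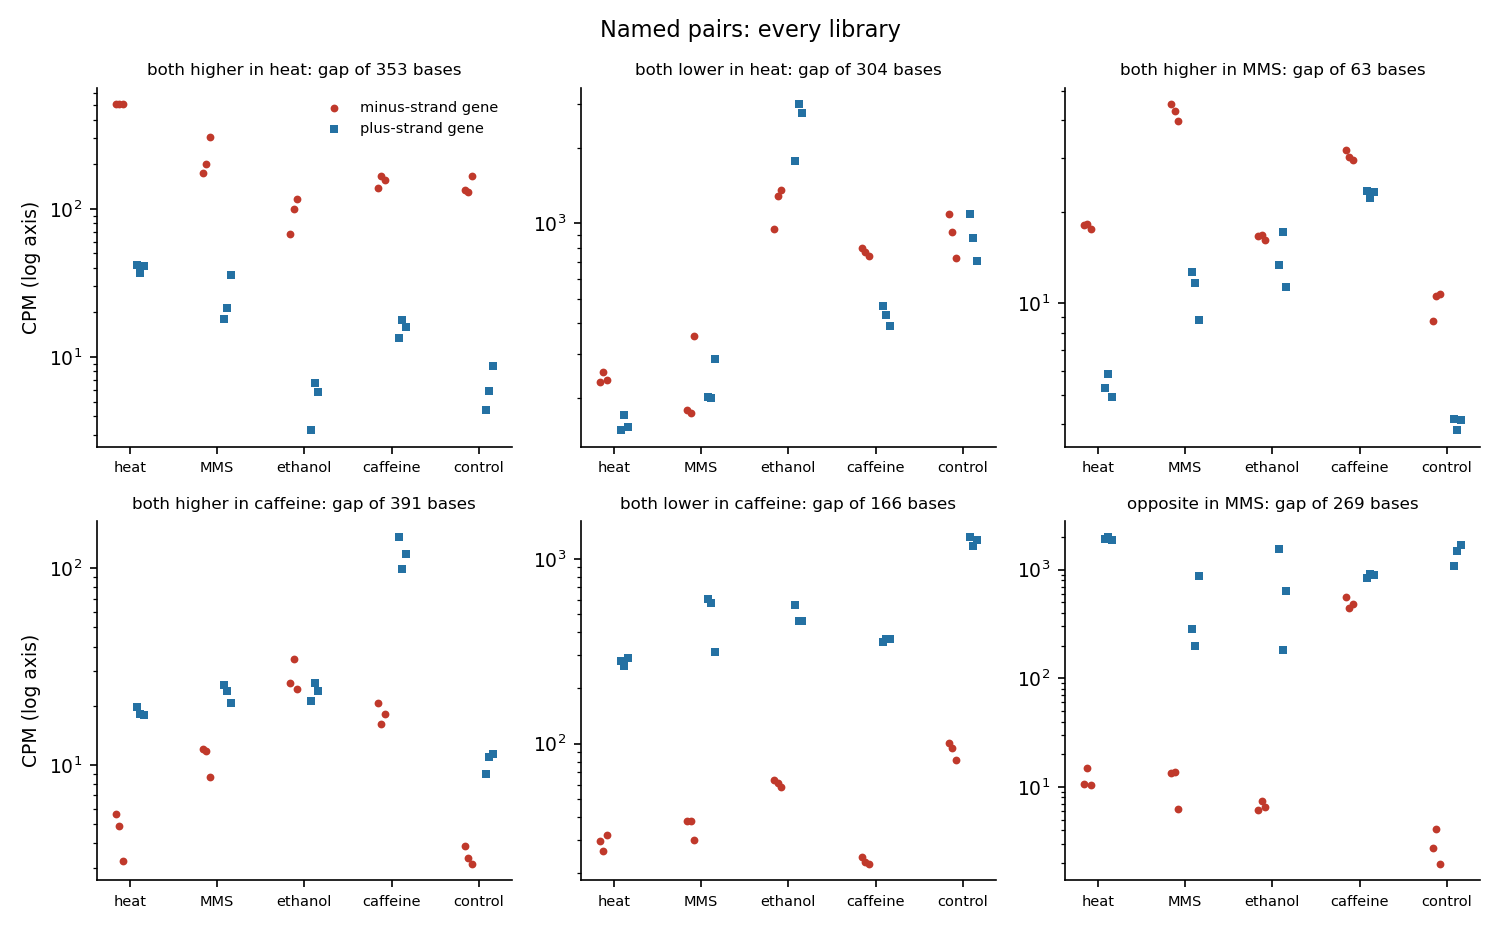
CPM on a log axis in every library of the 4 stresses and the 28C controls for 6 compact pairs, with the minus-strand gene as circles and the plus-strand gene as squares. Each title gives the comparison the pair was chosen in; the pair with a gap of 304 bases is low in heat and MMS for both genes and high in ethanol for the plus-strand gene.

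Opposite changes of at least 2-fold were clear in a few pairs. In heat, at a gap of 166 bases on chromosome 6 (1974979 to 1975144), the minus-strand gene had 329, 326 and 296 CPM in heat and 713, 673 and 795 CPM in controls. The plus-strand gene had 646, 777 and 699 CPM in heat and 165, 199 and 244 CPM in controls. The groups were separate in both genes, which changed 2.29-fold down and 3.49-fold up (edgeR adjusted p = 1.35e-05 and 5.65e-06).

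In ethanol the opposite pair had a gap of 308 bases on chromosome 1 (154551 to 154858). Its minus-strand gene had 477, 263 and 343 CPM in ethanol and 1056, 1096 and 1236 CPM in controls, and its plus-strand gene had 346, 620.1 and 536 CPM in ethanol and 240.1, 215 and 212 CPM in controls. Neither gene's groups overlapped (log2 changes -1.65 and 1.17, edgeR adjusted p = 5.29e-06 and 5.21e-05). The genes went the same opposite ways in MMS (2.83-fold lower and 2.32-fold higher) and caffeine (1.68-fold lower and 3.00-fold higher), with edgeR adjusted p of at most 0.0028, and in heat the plus-strand gene missed the threshold (log2 change 0.39, adjusted p = 0.0584).

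In caffeine the pair at a gap of 194 bases on chromosome 2 (1124199 to 1124392) had 31.4, 24.4 and 27.4 CPM in caffeine and 12.9, 12.8 and 11.8 CPM in controls for the minus-strand gene. The plus-strand gene had 17.5, 21.4 and 18.1 CPM in caffeine and 38.9, 42.6 and 46.5 CPM in controls. The groups did not overlap, and the log2 changes were 1.14 and -1.17 (edgeR adjusted p = 7.85e-06 and 1.37e-05).

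The MMS pair called opposite ways, at a gap of 269 bases on chromosome 6 (2372156 to 2372424), also held the largest difference within a pair. In caffeine its minus-strand gene had 558, 447 and 483 CPM, against 2.76, 4.07 and 1.96 CPM in controls, a 164-fold rise (log2 change 7.36 ± 0.32, SE, edgeR adjusted p = 5.62e-10). The plus-strand gene had 846, 910.3 and 898 CPM in caffeine and 1089, 1473 and 1684 CPM in controls (log2 change -0.68 ± 0.59, SE, adjusted p = 0.338). Caffeine libraries all lay below the controls there, but the change was not called. The error is estimated over all 5 groups, and this gene had 1537, 183 and 639 CPM in ethanol and 284, 197 and 867 CPM in MMS. The part of these spreads in the missing call was not tested.

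In MMS the minus-strand gene of this pair had 13.3, 13.7 and 6.30 CPM and the plus-strand gene 284, 197 and 867 CPM, with the controls as above. The changes were 1.88 (edgeR adjusted p = 4.85e-05) and -1.66 (adjusted p = 0.0244). The call of the plus-strand gene was lost without the first MMS library (log2 change -1.37, edgeR adjusted p = 0.0924), the second MMS library (-1.26, adjusted p = 0.101) or the third control (-1.51, adjusted p = 0.0609). Without the third MMS library its change was -2.56 (edgeR adjusted p = 0.00178).

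Pairs whose 2 changes lay furthest apart were picked after their values were seen. In heat and MMS it was the same pair, at a gap of 364 bases on chromosome 3 (87720 to 88083), and both genes were called lower. Its plus-strand gene had 56.2, 50.3 and 44.1 CPM in heat, 49.9, 55.8 and 38.1 CPM in MMS, and 779.6, 657 and 559.9 CPM in controls. Its minus-strand gene had 82.5, 75.7 and 84.5 CPM in heat, 107, 106 and 104 CPM in MMS, and 123, 119 and 113 CPM in controls. Stressed libraries lay below controls in both genes, by 13.3-fold and 13.9-fold in the plus-strand gene and 1.46-fold and 1.12-fold in the minus-strand gene.

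In ethanol the pair furthest apart had a gap of 47 bases on chromosome 4 (355529 to 355575). Its plus-strand gene had 30.2, 26.2 and 28.8 CPM in ethanol and 0.433, 0.502 and 0.669 CPM in controls, and its minus-strand gene 274, 177 and 204 CPM in ethanol and 308, 364 and 354 CPM in controls. Groups did not overlap in either gene. Without this pair r over compact pairs in ethanol was 0.317, and without the caffeine pair with the 164-fold rise r in caffeine was 0.432.

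Pairs at the edges of the rule were mixed. The shortest gap, a single base on chromosome 5 (1438640), lay between a minus-strand gene that fell by 0.67 in heat and a plus-strand gene that rose by 0.32 (edgeR adjusted p = 6.02e-05 and 0.00109). In MMS both genes fell, by 0.71 and 0.35 (edgeR adjusted p = 3.53e-05 and 0.000587). In the pair with the highest summed control level, the minus-strand gene had 297, 306 and 429 CPM in MMS and 3097, 3561 and 3485 CPM in controls, a 9.84-fold fall (edgeR adjusted p = 5.7e-08). Its plus-strand gene had 44.2, 54.2 and 76.7 CPM in MMS and 66.6, 65.3 and 77.0 CPM in controls, which overlapped (adjusted p = 0.135).

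Just inside the limit, the pair with a gap of 400 bases (chromosome 5, 2123199 to 2123598) had heat log2 changes of -0.36 in the minus-strand and 0.74 in the plus-strand gene, and that of 399 bases (chromosome 4, 229167 to 229565) -0.04 and -0.64. Just outside, the next longer gap (chromosome 4, 765999 to 766399) had -0.35 and -1.59, and that of 403 bases (chromosome 2, 487983 to 488385) 2.29 and -0.09.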

How the data were processed

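RNA of 15 K. lactis cultures was analysed; the other 15 libraries of the 30, from K. marxianus, were not used here. The files deposited by the authors hold whole-number counts that were not normalized. TopHat and HTSeq are named per the submitters' processing notes, with no version; the ethanol files were made by featureCounts 1.6.3 on exons, per the file headers. Genome build and strand use are not given in the sources used here, so overlapping and antisense genes are uncertain, and positions come from the featureCounts files as they stand. Reads on no feature (4.68% to 8.04% of reads outside ethanol) and ambiguous reads (1.69% to 3.67%) stayed out of totals and tests.

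Counts of genes listed in several parts were added up, which gave 5320 genes. The filterByExpr filter left 5124, scaled by TMM (factors 0.735 to 1.39) and tested for all genes at once with edgeR's quasi-likelihood test (version 4.0.16, R 4.3.3) in a single model of the 5 groups; the biological coefficient of variation was 0.145. Tests were 2-sided, with Benjamini-Hochberg adjustment over all genes tested. Log2 ratios of the 2 genes of all 4991 adjacent pairs were tested with limma 3.58.1. The SE of an edgeR log2 change is its size over the square root of F. DESeq2 1.42.0 served as an alternative. Levels are log2 of control CPM per kilobase plus 0.1. Tables and plots used Python 3.11.15, pandas 2.3.3 and matplotlib 3.10.9.

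The members, lists and tests were chosen with earlier results of these data known, and splits by control level after the present ones were seen. Pairs were named by the largest smaller change among those passing the limits given in the text, 1 higher and 1 lower by ID and 1 opposite by position in each stress. The gene table given for names matched 0 of the IDs, so gene lists by function could not be used and none was tested. Replicates are described as biological, no 2 files were alike, and their numbers were checked for pairing: same-numbered stress and control libraries deviated together with correlations of -0.23 to 0.21, so the numbers are not treated as pairs. On simulated data over 5115 genes, 2-fold changes were called for 93.9% of 66 genes in heat and 95.9% of 73 in MMS. In ethanol it was 89.9% of 69 genes and in caffeine 95.2% of 62. Of the calls 5.62%, 8.21%, 4.57% and 3.70% were false in heat, MMS, ethanol and caffeine. The simulation changed few genes, with 178, 195, 175 and 189 called in that order. That is far fewer than in the data, so its rates may not hold for the data.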

Additional observations from a re-analysis of the deposited data

How the results depend on the processing

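The alternatives were RLE scaling, raw totals, a prior count of 5, DESeq2, no filter on low counts, the replicate block, a fit without ethanol, each library left out, no pair with an overlapping gene, other gap limits and a 2-fold minimum. Chosen after seeing the data were a minimum of 10 CPM in controls for both genes and leaving out the pair furthest apart. The numbers of same-way, opposite and differently sized pairs stayed within 1.5 times under RLE, raw totals, DESeq2, the replicate block, no filter, the fit without ethanol and every library left out. Lower counts came with the narrower limit and the 2-fold minimum, which keep fewer pairs by construction. With gaps of 1 to 300 bases (252 pairs tested), 84 heat, 93 MMS, 76 ethanol and 84 caffeine pairs moved the same way, and r was 0.392, 0.358, 0.231 and 0.319 in that order of stresses. With gaps up to 500 bases r was 0.404, 0.346, 0.244 and 0.340. With at least 2-fold in both genes 34, 21, 9 and 16 pairs moved the same way in heat, MMS, ethanol and caffeine.

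Some r values moved by more than the spread between libraries, with the cause not tested. Without a count filter r was 0.397 in heat and 0.360 in MMS. Without overlapping genes it was 0.392 in heat, and 0.141 in longer ethanol pairs. With at least 10 CPM in controls it was 0.413 in compact and 0.263 in longer pairs in heat, 0.326 in compact pairs in ethanol, and 0.404 in compact and 0.251 in longer pairs in caffeine. Without the pair furthest apart it was 0.432 in caffeine. With 1 library left out, r ran from 0.402 to 0.412 in heat and from 0.354 (without the third MMS library) to 0.381 in MMS in compact pairs, and from 0.289 to 0.303 in longer caffeine pairs. In none of these did r of compact pairs fall below that of longer pairs in the same stress.

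With the replicate block, which pairs libraries only by number, 147 heat, 170 MMS, 131 ethanol and 138 caffeine pairs moved the same way, and r was 0.410, 0.376, 0.269 and 0.364. Small changes were often missed on simulated data. In heat over 5115 genes, 61.8% of 68 genes changed 1.5-fold were called, and 31.9% of 119 pairs whose ratio changed 1.5-fold over 4990 pairs. Far fewer genes were called there (178) than in the heat data (71.0% of 5124), so these rates may not hold for the data. A pair with no call is still not shown to be unchanged or of equal size.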
